A study of Mus musculus with 2 samples.

Results

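DNA replication and nucleotide synthesis genes were examined as a group of 38 genes, listed by symbol, in the gene expression table of a Setdb1 knockdown experiment. All 38 were found among the 54680 loci of the table, each at 1 locus, and all 38 reached 1 FPKM in at least 1 library, the level that 10671 genes reached. FPKM counts sequenced fragments per kilobase of gene model and per unit of sequencing depth. In the deposited values that depth was 18731117 for both libraries, not each library's own read total. The cells were CT26, an established mouse colon cancer line, grown for 6 days after lentiviral infection. In the shSetdb1 group they expressed a short hairpin RNA that targets Setdb1, the gene of an enzyme that methylates lysine 9 of histone H3, and the labels call these cells differentiated. In the shCtrl group they carried the empty knockdown vector and are labelled wild type. Each group had 1 library, so no difference below has a replicate check, and every comparison describes these 2 libraries and not the conditions.

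Before each S phase, the origin recognition complex, Cdc6 and Cdt1 load a ring of Mcm2 to Mcm7 onto origins, a step called licensing, which geminin blocks by binding Cdt1. The ring becomes an active helicase when Cdc45 and the GINS complex join it, and polymerase alpha-primase then lays down primers that the delta and epsilon polymerases extend with the PCNA clamp. Ribonucleotide reductase, thymidylate synthase and thymidine kinase supply deoxynucleotides. Many of these genes are known targets of E2F factors and are transcribed at the G1/S boundary, whereas mitotic genes peak later, which is why mitotic genes are kept apart here.

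The libraries held 18421604 reads (shCtrl) and 19045830 reads (shSetdb1), recovered as whole numbers from the deposited values. Setdb1 itself was at 10.4 FPKM with shCtrl and 2.47 FPKM with shSetdb1. Of 9 epithelial markers, Epcam and Cdh1 had no reads in either library, and the 3 that reached 1 FPKM were all higher with shSetdb1: Krt18 (37.7 against 90.0 FPKM), Krt20 (5.07 against 35.6 FPKM) and Krt19 (0.029 against 1.53 FPKM). The summed level of the epithelial list was 43.8 FPKM with shCtrl and 128 FPKM with shSetdb1. Of 7 mesenchymal markers 6 reached 1 FPKM and Thy1 had no reads, with a summed level of 1320 FPKM (shCtrl) and 1502 FPKM (shSetdb1). Within that list Vim (752 against 835 FPKM) and Fn1 (381 against 534 FPKM) were higher, and the collagen genes Col1a1 (3951 against 2950 reads), Col1a2 (140 against 94.1 FPKM) and Col3a1 (2.68 against 0.887 FPKM) were lower. Of 7 leukocyte markers 1 reached 1 FPKM, which was Cd68, at 10.4 FPKM with shCtrl and 100.2 FPKM with shSetdb1. Ptprc, the defining leukocyte gene, had 0 and 4 reads, and of the 4 endothelial markers 3 had no reads in either library. The part of these markers in the results below was not tested. In bulk RNA, a different share of cells in S phase and a different amount of RNA per cell cannot be told apart.

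Most of the replication genes were slightly higher with shSetdb1. The log2 ratio of (FPKM + 1), knockdown over control, was above 0 for 29 of the 38 genes (76.3%), against 49.6% of all genes tested, and for 28 when libraries were scaled by their own read totals. The median over the 38 genes was 0.24, with a range from -1.27 for Orc2 to 1.01 for Gins3, and the median over all 10671 genes was -0.00039. With own read totals the median was 0.19 over the 38 genes and -0.044 over the 10678 genes then tested. Together the 38 genes took 67507 reads with shCtrl and 77903 with shSetdb1.

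Few of these differences were large. At least 1.5-fold higher on the (FPKM + 1) scale were 4 of 38 genes, which were Gins3, Gins2, Gmnn and Cdc6, where 16.9% of all genes tested were that much higher. At least 1.5-fold lower were 2, Orc2 and Rfc1, where 14.3% of all genes were. A difference of 2-fold or more in either direction was seen for 2 genes, Orc2 and Gins3, against 11.7% of all genes. Gins3 is just past that fold, and it was at 0.97 when each library was scaled by its own read total, which left 1 gene. The pseudocount of 1 holds low genes back: with 0.1 in its place, 6 genes were at least 1.5-fold higher and 3 lower, out of the same 38. Over all genes tested, 20.3% were then that much higher and 18.8% that much lower.

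Counting error was judged by the 95% exact binomial (Clopper-Pearson) interval of the read ratio, each read count taken relative to its library's total. This interval covers counting error only, and it compares the libraries, not the conditions. It treats reads as independent molecules, which reads copied by PCR are not, so it can be too narrow even for counting error. It lay above 1 for 23 of the 38 genes, where 35.2% of all genes tested had such an interval. It lay below 1 for 7 genes, where 40.6% of all genes did, and included 1 for the other 8.

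**Figure D1:**
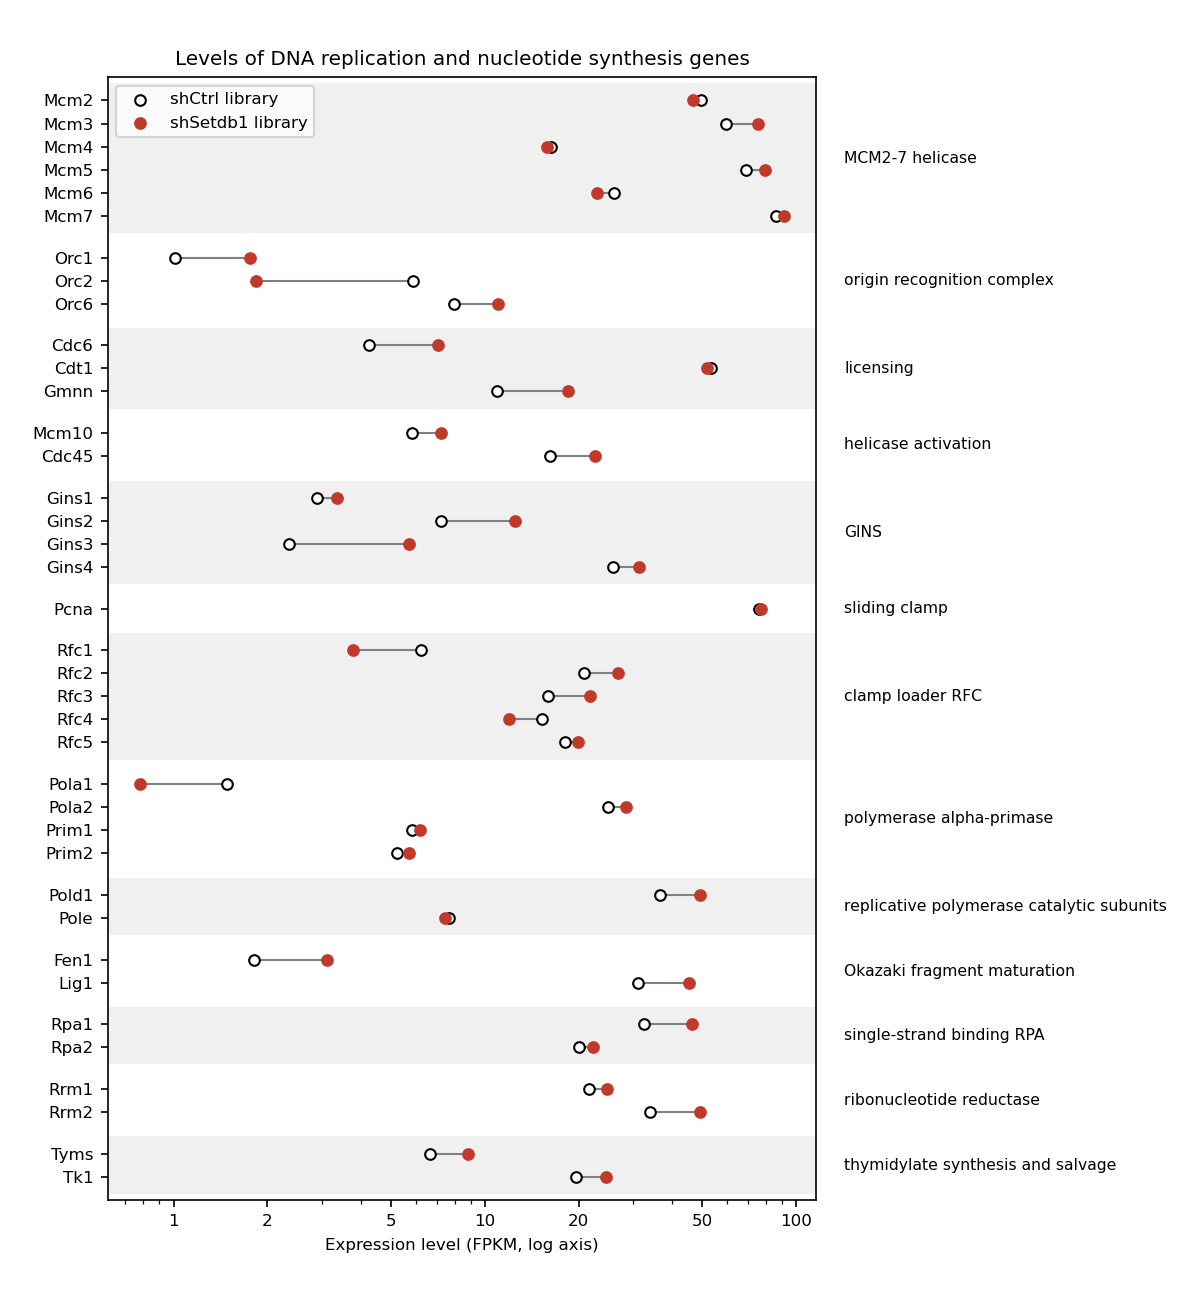
Expression level in FPKM (log axis) of the 38 genes, grouped by role, in the shCtrl library (open circles) and the shSetdb1 library (filled circles), with a line joining the 2 values of a gene. Levels run from about 1 FPKM for Orc1 and Pola1 to 86.1 and 91.3 FPKM for Mcm7, and the longest lines are those of Orc2 and Gins3, in opposite directions.

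**Figure D2:**
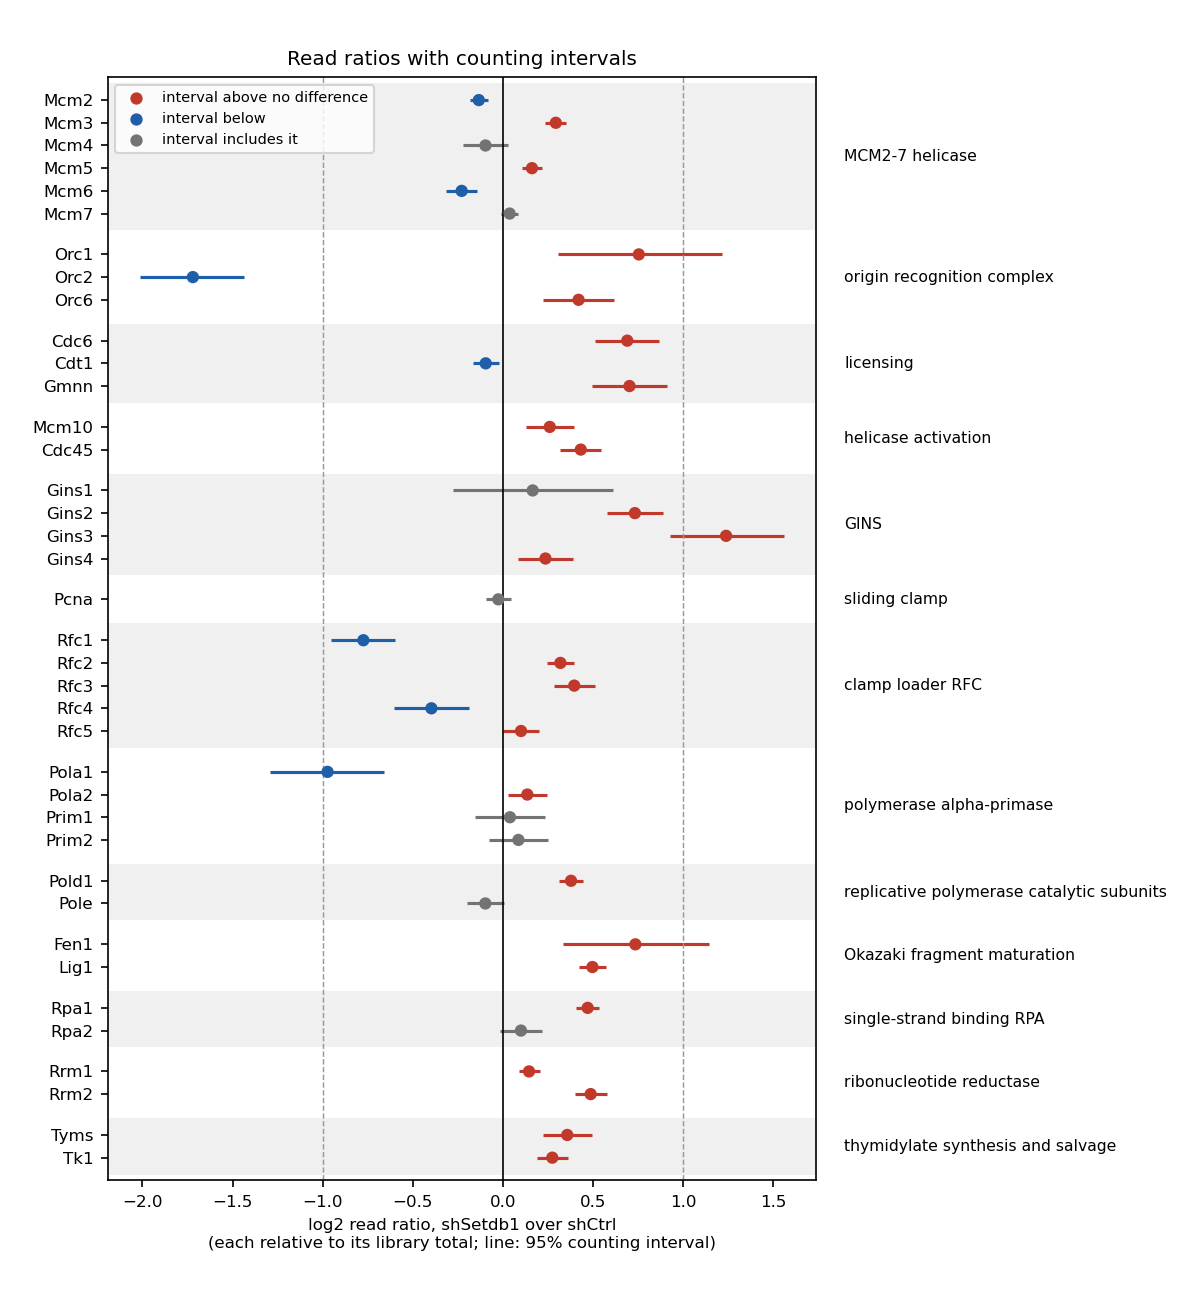
Log2 read ratio of each gene, shSetdb1 over shCtrl, each count relative to its library total, with its 95% counting interval as a line; dashed lines mark 2-fold. Intervals of 23 genes lie above 0, of 7 below and of 8 across it, and Orc2 is the only gene whose whole interval lies beyond 2-fold lower.

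The promoters are shown because their E2F-type matches are compared below with those of mitotic genes, and the full windows are those of the genes with the most extreme log2 ratios of (FPKM + 1). RefSeq promoters on GRCm38.p6 were matched for 30 of the 38 genes, and windows ran from 250 bases before to 30 bases after the start site. Gins2, Gins1, Gins4, Gmnn, Mcm4, Pole, Prim2 and Rfc2 had no entry. An E2F-type match was any of TTTCCCGC, TTTCGCGC, TTTGCCGC and TTTGGCGC on either strand. The strands can overlap in 1 site, as they do in Mcm5, so matches and not sites were counted. Each line below gives the match nearest to the start site in capitals, read 5′ to 3′ along the gene's strand, with up to 6 bases on each side.
Cdc6, chr11:98908007-98908026, plus strand: tggagaGCGGGAAAtcgcct
Gins3, chr8:95633512-95633531, plus strand: tgcggcGCGGGAAAgcgagt
Mcm3, chr1:20820283-20820299, minus strand: tccgtgGCGGGAAAact
Mcm5, chr8:75109354-75109373, plus strand: actttcGCGCCAAAacgtcc
Mcm6, chr1:128359739-128359758, minus strand: gacgggTTTGGCGCgaagta
Mcm7, chr5:138171854-138171873, minus strand: acgacgTTTCGCGCcaattt
Orc1, chr4:108579421-108579440, plus strand: ttagtgGCGCGAAAagtttt
Pola1, chrX:93632280-93632299, minus strand: cacaggGCGCCAAAtgcact
Rfc3, chr5:151651195-151651214, minus strand: gcgctcGCGGGAAAactcta

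These 9 genes were 30% of the 30 windows. The share was 4.76% among 42 mitotic genes (2 windows), 4.28% among 7450 protein-coding genes tested and 2.45% among all 20477 genes matched in the promoter table. The letters CCAAT, bound by NF-Y, were on either strand of 66.7% of the replication windows, 76.2% of the mitotic windows and 39.1% of the windows of protein-coding genes tested. The letters TTTGAA, the core of the cell cycle homology region (CHR) of late cell cycle genes, were in 13.3% of the replication windows, 64.3% of the mitotic windows and 10.9% of the protein-coding windows. The share of E2F-type matches was thus highest in the replication group, and that of TTTGAA in the mitotic group. The 9 genes with an E2F-type match had a median log2 ratio of 0.34, 7 of them above 0, and the 21 without had a median of 0.18, 16 of them above 0. Their ranges overlap, from -0.48 to 1.01 with a match and from -1.27 to 0.55 without. Gins3 (1.01) and Cdc6 (0.62) hold a match, while Gins2 and Gmnn, also at least 1.5-fold higher, had no window. The part of these matches in the differences was not tested. A match is a description of these letters and does not show binding, and the lack of one does not show that an E2F site is absent.

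**Figure D3:**
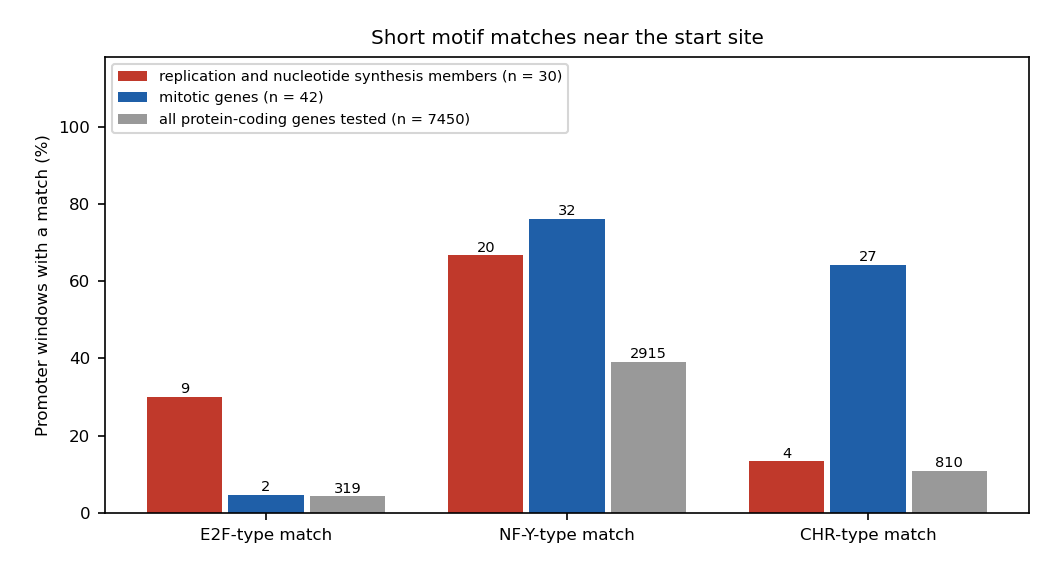
Share of promoter windows (percent, axis from 0) with at least 1 match, for 30 replication and nucleotide synthesis genes, 42 mitotic genes and 7450 protein-coding genes tested; the number above each bar is the count of windows. The E2F-type bar is highest for the replication genes (9 windows) and the CHR-type bar for the mitotic genes (27 windows).

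The 280-base windows of Gins3, the highest gene by the log2 ratio of (FPKM + 1), and of Orc2 and Rfc1, the lowest pair on that scale, are given whole, with E2F-type and CCAAT matches in capitals. By read ratio Pola1 (0.509) was lower than Rfc1 (0.584), and the Pola1 window holds an E2F-type match, given above, so these windows draw no contrast between higher and lower genes. Gins3 holds 1 E2F-type and 2 CCAAT matches and 1 TTTGAA match, the last left in lower case. Orc2 and Rfc1 hold 1 CCAAT match each.
Gins3, chr8:95633309-95633588, plus strand: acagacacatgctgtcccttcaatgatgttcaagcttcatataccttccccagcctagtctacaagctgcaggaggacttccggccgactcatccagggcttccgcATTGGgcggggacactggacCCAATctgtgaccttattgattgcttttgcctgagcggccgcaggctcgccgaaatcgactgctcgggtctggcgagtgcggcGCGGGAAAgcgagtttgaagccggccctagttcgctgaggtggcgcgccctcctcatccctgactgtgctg
Orc2, chr1:58505080-58505359, minus strand: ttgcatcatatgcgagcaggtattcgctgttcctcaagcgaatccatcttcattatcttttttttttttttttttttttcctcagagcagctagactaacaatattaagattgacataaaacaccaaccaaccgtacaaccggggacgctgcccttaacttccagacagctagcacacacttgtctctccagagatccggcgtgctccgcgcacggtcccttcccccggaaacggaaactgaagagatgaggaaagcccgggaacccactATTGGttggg
Rfc1, chr5:65335610-65335889, minus strand: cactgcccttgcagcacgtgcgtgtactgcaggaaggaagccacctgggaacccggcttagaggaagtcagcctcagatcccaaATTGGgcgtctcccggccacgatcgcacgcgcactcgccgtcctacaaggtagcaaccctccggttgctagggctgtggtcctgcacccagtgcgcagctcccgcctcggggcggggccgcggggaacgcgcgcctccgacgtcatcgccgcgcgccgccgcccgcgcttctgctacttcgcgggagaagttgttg

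The origin recognition complex was the most divided group. Orc2 (minus strand of chromosome 1, 58462771 to 58505109, GRCm38), a core subunit that stays on chromatin, was at 5.87 FPKM (424 reads) with shCtrl and 1.84 FPKM (133 reads) with shSetdb1. Its log2 ratio of (FPKM + 1) was -1.27 and its read ratio 0.303, with a counting interval of 0.248 to 0.369. Only 2.43% of all genes tested had a lower log2 ratio. Orc6, the smallest subunit, was at 7.98 FPKM against 11.03 FPKM, a read ratio of 1.34 (1.17 to 1.53). Orc1, the cell-cycle-regulated ATPase subunit, was near the detection level, with 66 reads with shCtrl and 115 with shSetdb1, a read ratio of 1.69 (1.23 to 2.32). The subunits therefore differed in direction, Orc2 lower and Orc1 and Orc6 higher. At 1150 of the exon bases of Orc2, 29.8% of its length, exons of Nif3l1 lie on the opposite strand, and Nif3l1 was also lower, with 1236 reads against 647.

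Of the other origin subunits, Orc4 was at 0.988 FPKM (shCtrl) and 1.30 FPKM (shSetdb1), Orc3 at 1.25 and 0.816 FPKM, and Orc5 at 2.64 and 2.22 FPKM. These 3 genes are outside the 38 and are named to complete the complex after their values were seen.

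Among licensing factors, the loader Cdc6 and the inhibitor geminin were higher and Cdt1 was nearly level. Cdc6, the ATPase that joins the origin recognition complex to load the helicase, was at 4.26 FPKM (417 reads) with shCtrl and 7.10 FPKM (695 reads) with shSetdb1, a log2 ratio of 0.62. Gmnn, encoding geminin, was at 10.97 FPKM (301 reads) against 18.4 FPKM (506 reads), which gave a read ratio of 1.63 (1.41 to 1.88). Cdt1, the factor that geminin binds, was at 53.4 FPKM against 51.6 FPKM, a read ratio of 0.935 (0.890 to 0.984). Per length, Gmnn RNA was thus at 0.206 of the Cdt1 level with shCtrl and 0.357 with shSetdb1.

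The 6 helicase genes were close to level, with no member past 1.5-fold and log2 ratios from -0.17 to 0.34. Mcm3 was at 59.7 FPKM with shCtrl and 75.6 FPKM with shSetdb1, the highest read ratio of the 6 at 1.22 (1.18 to 1.28). Mcm5 was at 69.0 FPKM against 79.7 FPKM, a read ratio of 1.12 (1.08 to 1.16). Mcm6 was at 25.9 FPKM against 22.9 FPKM, the lowest of the 6 at 0.853 (0.803 to 0.906). Mcm2 was also slightly lower, at 49.5 FPKM against 46.6 FPKM, while Mcm7 (86.1 against 91.3 FPKM) and Mcm4 (16.4 against 15.8 FPKM) had intervals that included 1. The 6 proteins form a ring with 1 copy of each, but their RNA levels per length were spread 5.26-fold with shCtrl, from Mcm4 to Mcm7, and 5.77-fold with shSetdb1, with the same genes at both ends. Mcm7 was the highest of the 38 genes in both libraries.

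Of the 6 genes that activate the helicase, 5 had intervals above 1, where 35.2% of all genes tested did, and the interval of Gins1 included 1. Cdc45, which binds the ring, was at 16.2 FPKM (1064 reads) against 22.6 FPKM (1483 reads), a read ratio of 1.35 (1.25 to 1.46). Mcm10, needed for origin firing, was at 5.85 FPKM against 7.24 FPKM, a ratio of 1.20 (1.09 to 1.31). All 4 GINS subunits had log2 ratios above 0, with a median of 0.49. Gins3 (plus strand of chromosome 8, 95633453 to 95645060) was at 2.35 FPKM (119 reads) with shCtrl and 5.72 FPKM (290 reads) with shSetdb1, a read ratio of 2.36 (1.90 to 2.94), and 93.2% of all genes tested had a lower log2 ratio. Gins2 (minus strand of chromosome 8, 120578633 to 120589304) was at 7.26 FPKM (557 reads) against 12.5 FPKM (956 reads), a ratio of 1.66 (1.49 to 1.85). Gins4 was at 25.7 FPKM against 31.3 FPKM, a ratio of 1.18 (1.06 to 1.31), and Gins1 at 2.89 FPKM (82 reads) against 3.35 FPKM (95 reads), with an interval from 0.825 to 1.52 that included 1. The Gins2 value is uncertain, because 67.3% of its exon length lies opposite exons of Gse1, which had 492 reads with shCtrl and 1051 with shSetdb1. Gins3 shares no exon base with another gene that has at least 10 reads in all.

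The sliding clamp and its loader did not go together. Pcna, the clamp that holds polymerases on DNA, was at 76.1 FPKM (3421 reads) and 77.3 FPKM (3473 reads), with a read ratio of 0.982 (0.936 to 1.03), and its sign depended on scaling. Rfc1, the large subunit of the clamp loader (minus strand of chromosome 5, 65261850 to 65335670), was lower, at 6.25 FPKM (705 reads) against 3.78 FPKM (426 reads), a read ratio of 0.584 (0.517 to 0.660). Rfc4 was lower as well, at 15.2 FPKM against 11.9 FPKM (0.759, 0.657 to 0.876). The remaining small subunits were higher, Rfc3 at 16.0 against 21.7 FPKM (1.31, 1.21 to 1.42) and Rfc2 at 20.8 against 26.8 FPKM (1.25, 1.18 to 1.31), and Rfc5 was close to level at 18.0 against 19.99 FPKM, the lower end of its interval lying just above 1. The spread of RNA levels per length over the 5 subunits, which form the loader with 1 copy of each, was 3.33-fold with shCtrl and 7.10-fold with shSetdb1, with Rfc1 lowest and Rfc2 highest in both.

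In polymerase alpha-primase the catalytic polymerase gene went one way and its partners stayed near level. Pola1, the catalytic subunit, was low in both libraries, at 1.48 FPKM (245 reads) with shCtrl and 0.781 FPKM (129 reads) with shSetdb1, and its read ratio was 0.509 (0.408 to 0.633). Its log2 ratio of (FPKM + 1) was -0.48, and -0.85 with a pseudocount of 0.1. Pola2, the accessory subunit, was at 24.9 FPKM against 28.3 FPKM, a read ratio of 1.10 (1.02 to 1.18). The primase genes Prim1 (5.82 against 6.18 FPKM) and Prim2 (5.21 against 5.71 FPKM) had intervals that included 1. The Pola2 level per length was 16.8 times that of Pola1 with shCtrl and 36.2 times with shSetdb1, the widest spread of the 7 complexes compared.

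The catalytic subunits of the delta and epsilon polymerases differed. Pold1, which copies mainly the lagging strand, was at 36.6 FPKM (3334 reads) against 49.2 FPKM (4476 reads), a read ratio of 1.30 (1.24 to 1.36). Pole, which copies mainly the leading strand, was at 7.69 FPKM (1608 reads) against 7.43 FPKM (1553 reads), and its interval of 0.871 to 1.002 included 1. Genes that finish Okazaki fragments were both higher: the ligase gene Lig1 was at 31.1 FPKM against 45.4 FPKM, a read ratio of 1.41 (1.34 to 1.48), and the flap nuclease gene Fen1 at 1.81 FPKM (82 reads) against 3.11 FPKM (141 reads), a ratio of 1.66 (1.26 to 2.21). The Fen1 level was low beside that of Lig1 in both libraries. Of the subunits of the single-strand binding protein RPA, Rpa1 was at 32.4 FPKM against 46.4 FPKM (1.38, 1.32 to 1.45), while Rpa2 was at 20.1 against 22.2 FPKM, with an interval that included 1.

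The 4 listed genes of deoxynucleotide supply, Rrm1, Rrm2, Tyms and Tk1, were higher with shSetdb1, but Dctd, Dut and Dtymk, which also act in deoxynucleotide supply and are outside the 38, were lower. Rrm2, the regulatory small subunit of ribonucleotide reductase, whose protein is limited to S phase and G2, was at 33.9 FPKM (1757 reads) against 49.0 FPKM (2544 reads), a read ratio of 1.40 (1.32 to 1.49). Rrm1, the large subunit, was at 21.5 FPKM against 24.6 FPKM, a ratio of 1.10 (1.06 to 1.15). Rrm2 was thus at 1.57 times the Rrm1 level per length with shCtrl and 1.99 times with shSetdb1. Tyms, thymidylate synthase, was at 6.67 FPKM against 8.83 FPKM (1.28, 1.16 to 1.41), and Tk1, cytosolic thymidine kinase, at 19.6 FPKM against 24.4 FPKM (1.21, 1.14 to 1.28).

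The order of levels among the 38 genes was largely shared by the libraries. For 33 of them the rank by FPKM moved by 3 places or fewer. The largest move was that of Orc2, from place 29 to place 36. Differences were not confined to low genes. By level with shCtrl, the median log2 read ratio was 0.26 over the 15 genes under 10 FPKM. It was 0.14 over the 13 genes at 10 to under 30 FPKM and 0.23 over the 10 genes at 30 FPKM or more. The range was widest in the lowest set (-1.72 to 1.24), then in the middle set (-0.40 to 0.70), and narrowest in the highest (-0.13 to 0.50).

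Several of these genes share a start region with a neighbour on the opposite strand, and the neighbours were on either side of 0. A protein-coding gene starting on the opposite strand within 1000 bases was annotated for 10 of the 38 genes (26.3%), against 18.2% of the protein-coding genes tested. In 9 pairs the neighbour passed the level filter, and in 4 of the 9 its log2 ratio had the same sign as the replication gene. Beside Cdc45, which was higher, Ufd1 was lower, with 913 reads with shCtrl and 560 with shSetdb1 (log2 ratio -0.63). Beside Orc6, which was also higher, Vps35 was lower, with 970 reads against 670 (-0.44). Beside Pole, which was level, Pxmp2 had 3 reads against 41.

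The rest of the pathway was less uniform than the 38 genes. Of 32 other replication fork and licensing genes, 29 passed the level filter, with a median log2 ratio of -0.02. The counting interval lay above 1 for 10 and below 1 for 12, where 35.2% and 40.6% of all genes tested had such intervals. Pold4, the smallest subunit of polymerase delta, was highest, at 56.0 FPKM against 126 FPKM (log2 ratio 1.16). Recql4, a helicase needed for replication initiation, was lowest, at 19.0 FPKM against 8.61 FPKM (-1.06). Pole3 and Pole4, the histone-fold subunits of polymerase epsilon, were both lower, with log2 ratios of -0.57 and -0.78, and so was Pold2 (-0.36). Pole2 (0.44) and Pold3 (0.60) were higher, so the listed subunits of these polymerases went both ways. Apart from Pold4, these subunits were named after their values were seen.

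The other nucleotide synthesis genes had a median on the other side of 0 from Rrm1, Rrm2, Tyms and Tk1. Of 33 that passed the level filter out of 34, 23 had a log2 ratio below 0, and the median was -0.28. The counting interval lay below 1 for 21 and above 1 for 6, against 40.6% and 35.2% of all genes tested. At least 1.5-fold lower were 8 genes and at least 1.5-fold higher 2, against 14.3% and 16.9% of all genes tested. Mthfd1, a folate enzyme that supplies one-carbon units for purines and thymidylate, was lowest, at 36.3 FPKM (3021 reads) with shCtrl and 8.99 FPKM (748 reads) with shSetdb1. Adssl1, an adenylosuccinate synthase, was highest, at 10.8 FPKM (424 reads) against 25.3 FPKM (990 reads). Cad, which starts pyrimidine synthesis, was at 48.4 FPKM against 23.2 FPKM, and Atic, which ends purine ring synthesis, at 71.0 FPKM against 37.4 FPKM, both named after their values were seen. Deoxynucleotide genes in this list went both ways and were likewise chosen afterwards. Lower were the deaminase gene Dctd, at 16.9 FPKM (1078 reads) against 4.06 FPKM (259 reads), the dUTPase gene Dut, at 76.0 against 55.0 FPKM, and the thymidylate kinase gene Dtymk, at 40.8 against 36.3 FPKM. Higher were the salvage kinase genes Dck, at 11.3 against 16.8 FPKM, and Tk2, at 12.8 against 15.5 FPKM.

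Among E2F genes, E2f1, E2f2, E2f7 and E2f8 were higher, E2f4 was lower and the activator E2f3 was near level. The median log2 ratio of the E2F and RB family was near 0 (-0.01 over 12 genes, and 0.55 over those at 5 FPKM or more). The counting interval lay above 1 for 4 of the 12 and below 1 for 3, against 35.2% and 40.6% of all genes tested. E2f2, an activator E2F, had the highest ratio, at 1.40 FPKM (128 reads) against 8.54 FPKM (781 reads), a read ratio of 5.90 (4.89 to 7.17). E2f1 was at 30.6 FPKM (1807 reads) against 57.0 FPKM (3369 reads), and E2f7 and E2f8 had log2 ratios of 0.55 and 0.65; these 3 were named after their values were seen. Rbl1, the pocket protein p107, was lowest, at 5.59 FPKM against 3.92 FPKM (-0.42). E2f4 was nearly as low, at 86.9 FPKM (3993 reads) with shCtrl against 65.1 FPKM (2988 reads) with shSetdb1 (-0.41). Rbl2 was slightly lower (-0.14). E2f4 and Rbl2 were likewise named after their values were seen. For the 5 of 12 genes whose intervals included 1, among them Rb1 and E2f3, no difference was detectable at this depth.

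Factors that rebuild chromatin behind the fork had a median of 0.19 over 13 genes, with 7 intervals above 1 and 3 below. Over all genes tested, the shares to set beside these counts and those that follow were 35.2% above 1 and 40.6% below. Chaf1a, the large subunit of chromatin assembly factor 1, was highest, at 10.2 FPKM against 19.8 FPKM (0.89). Kmt5a, a histone H4 lysine 20 methyltransferase, was lowest, at 28.2 FPKM against 15.1 FPKM (-0.86). Of 11 replication checkpoint genes, 5 had intervals above 1 and 4 below, from Rad9a at -0.49 to Cdc25a at 0.63. Of 15 G1/S cyclins, kinases and inhibitors, 8 were above 1 and 7 below, from Cks1b at -1.14, which has 4 other loci with the same protein match, to Ccne1, whose log2 ratio was 1.61.

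Mitotic genes had a median log2 ratio just below 0. Of 50 listed, 49 passed the level filter. The median was -0.07, and 19 were above 0 and 30 below. The counting interval lay above 1 for 15 and below 1 for 24, against 35.2% and 40.6% of all genes tested. The highest was Ccnf, encoding cyclin F, at 24.6 FPKM against 45.5 FPKM (0.86), and the lowest Ect2, a cytokinesis regulator, at 8.15 FPKM against 3.51 FPKM (-1.02). The ranges of both groups overlap over most of their width, and with 1 library per group the difference between them has no test.

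**Figure D4:**
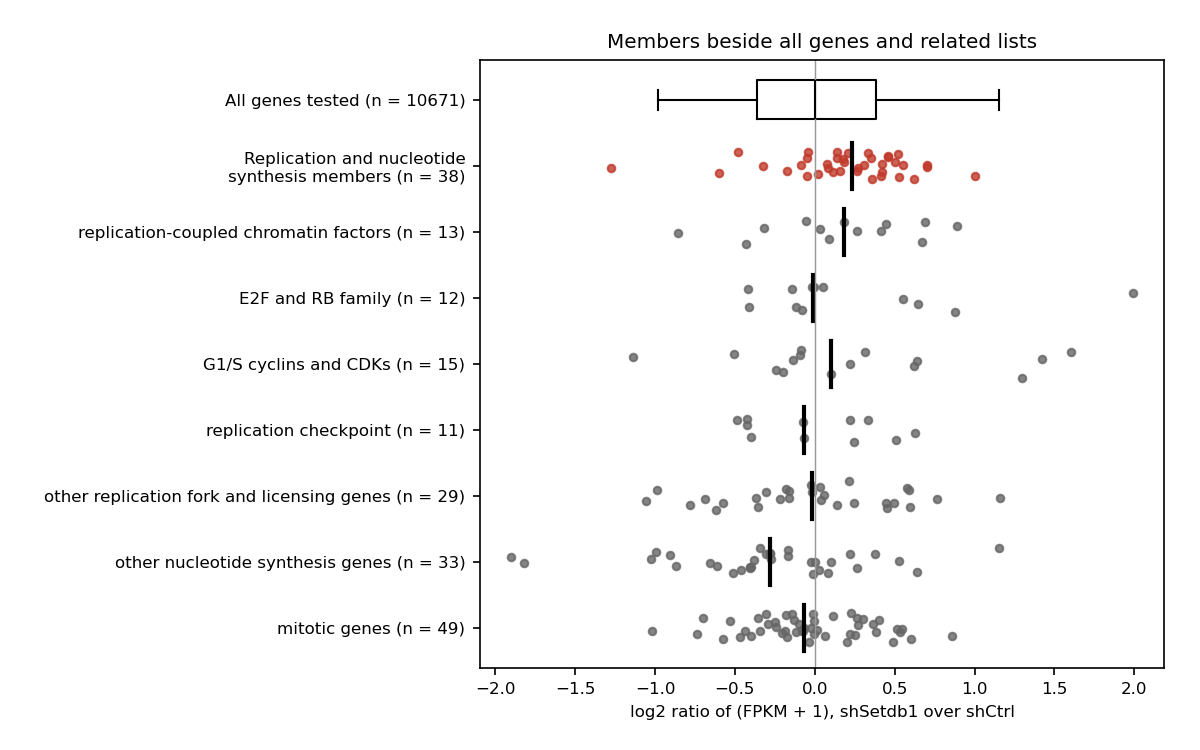
Log2 ratio of (FPKM + 1), shSetdb1 over shCtrl, of all genes tested (box: quartiles and median; whiskers: 5th to 95th percentile) and of each gene in 8 lists (points, spread vertically at random; bar: median). The replication and nucleotide synthesis members have their median at 0.24, the other nucleotide synthesis genes at -0.28 and the mitotic genes at -0.07, and all lists overlap.

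Counting limits bear on several of these genes. Of the 38, 12 share exon bases with another gene that has at least 10 reads in all, and whether counting used strand is not given in the sources used here, so reads there could belong to either gene. The 26 without such overlap had a median log2 ratio of 0.18. Their intervals lay above 1 for 14 and below 1 for 5, against 35.2% and 40.6% of all genes tested. Other loci matching the same protein held 61 reads in both libraries together for Pcna and 18 or fewer for each other gene with such a match, and adding them changed none of the counts past 1.5-fold or 2-fold.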

How the data were processed

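The authors deposited FPKM values for 1 library per group, per the file headers; CASAVA, HISAT2 and featureCounts 1.5.0-p3 and the GRCm38 build are named in the submitters' processing notes, without their settings. Columns were matched to samples by library name. FPKM times gene length gave whole reads for 100% of values above 0 (tolerance 0.1 read), with a common depth of 18731117 for both libraries. Of the 38 gene models, 37 had the exon-union length of GENCODE M21, so FPKM divides by all annotated exon bases and can understate genes with long minor isoforms. Ratios are log2 of (FPKM + 1); genes entered at 1 FPKM in at least 1 library. Intervals are 95% Clopper-Pearson on recovered reads. With 1 library per group there is no test between conditions and no p-value. All 38 members are named, with the highest and lowest gene of each related list; members and lists were chosen with earlier results of these data known. Calculations were tested on simulated data. Alternatives were a pseudocount of 0.1, no filter or 5 FPKM, 3 other scalings, sums over loci with the same protein match, means and 99% intervals. Work was done in Python 3.11.15 with scipy 1.17.1, pandas 2.3.3, matplotlib 3.10.9 and numpy 2.4.6.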

Additional observations from a re-analysis of the deposited data

How the results depend on the processing

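The median of the 38 genes stayed between 0.18 and 0.25 under all alternatives run, and with 99% intervals 21 genes lay above 1 and 7 below. The share of all genes tested with such 99% intervals is not given here, so these 2 counts have no background beside them. Genes past 2-fold numbered 1 under upper quartile scaling and 1 with own read totals, since Gins3 lies at the threshold. Over all genes tested, 11.8% and 11.7% were past 2-fold under these scalings. Of the 26 genes without shared exon bases, 3 were at least 1.5-fold higher, 1 was at least 1.5-fold lower and 1 was past 2-fold. Without Orc2 and Gins3 these counts were 3, 1 and 0. The 0 was fixed in advance, because no other gene of the 38 was past 2-fold. Over all genes tested the shares were 16.9%, 14.3% and 11.7%. These 2 exclusions were chosen after seeing the data. Setdb1 was at -2.04 with a pseudocount of 0.1, which lies closer to the plain ratio. With a filter at 5 FPKM, which leaves fewer genes, medians were -0.26 for other replication genes, 0.55 for the E2F and RB family, 0.30 for chromatin factors and 0.23 for checkpoint genes. Means in place of medians gave 0.24 for the E2F and RB family, 0.0063 for checkpoint genes and 0.25 for G1/S cyclins and kinases. The E2F and checkpoint medians thus changed sign; the cause was not tested. Of 197 alternative values of the 45 other results, single genes and complex spreads included, 189 stayed the same, 8 moved further than counting error and 0 changed a called direction. Pcna, near 0, was at -0.0260 with own read totals and -0.0392 under upper quartile scaling. No paired analysis was possible because shCtrl and shSetdb1 had 1 library each, which also left no library to leave out.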
